A study of Mus musculus with 8 samples.

Results

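The genes described here are 8 mouse genes of the intestinal brush border and of sugar uptake, chosen by symbol: the hydrolases Mgam, Sis, Lct, Treh and Alpi and the sugar transporters Slc5a1, Slc2a5 and Slc2a2. All 8 are among the 17041 genes of the deposited table. Of the 8, 5 (Mgam, Sis, Alpi, Slc5a1 and Slc2a5) were among the 13020 genes tested, those with a mean of at least 10 over all libraries. Lct, Treh and Slc2a2 were under that limit. Messenger RNA was sequenced from the proximal large intestine of 26-week-old ApoE knockout mice, a strain that lacks apolipoprotein E and develops atherosclerosis. The mice were bred germ-free and gavaged at 8 weeks of age with one of 2 bacterial communities. The core group (3 libraries) received a core community that makes no butyrate. The second group (5 libraries), core plus R. intestinalis in the plots and called the Roseburia group here, received that community together with the butyrate producer Roseburia intestinalis. All mice of both groups carried the knockout, and neither the diet nor the sex is given in the sources used here. Nothing in the labels says in so many words that each library is a separate mouse, so p-values measure the spread between these libraries.

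The brush border is the layer of microvilli on the gut lumen side of absorptive epithelial cells. Disaccharidases anchored in it, among them maltase-glucoamylase and sucrase-isomaltase, release glucose and other simple sugars from dietary starch and sugar. Sodium-coupled and facilitative transporters then carry the sugars into the cell and on to the blood. Most of these genes are best known from the small intestine, while the large intestine receives mainly the carbohydrate that escaped digestion, which its bacteria ferment.

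Values are the authors' normalized values, 1 per gene and library, and are not corrected for gene length. Estimated depth ran from 4597893 to 15352045 reads per library. Epithelial identity was plain in every library, with Epcam, an adhesion molecule of epithelial cells, between 11501 and 14865. All 14 colonocyte markers found in the table were read in every library. Of 19 small intestinal enterocyte markers found, 2 were at 0 in at least 1 library, and the others ranged from low to abundant. Fabp1, the liver-type fatty acid binding protein, was between 4.76 and 24.8, while Fabp2, the intestinal type, was between 1665 and 6700 and Mep1a, a brush border protease, between 5703 and 10519. Roseburia replicate 1 stood apart from the rest. It held the highest value of 3662 of the 13020 genes tested (28.1%), against 434 for replicate 3 of that group, the most deeply sequenced library.

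Mgam and Slc5a1 were the abundant and steady members. Mgam encodes maltase-glucoamylase, which splits starch fragments into glucose. Its normalized values in core replicates 1 to 3 were 1329, 1407 and 1869.8. In Roseburia replicates 1 to 5 they were 1687, 1668, 1908, 1747 and 1817. The libraries with R. intestinalis lay close together, and core replicate 3 lay among them, so the groups overlapped. The means were 1535 ± 292 (SD, n = 3) and 1765.5 ± 98.8 (SD, n = 5). The log2 difference, Roseburia minus core, was 0.22 (SE 0.13, 95% interval −0.08 to 0.51, limma adjusted p = 0.610).

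Slc5a1 encodes the sodium-glucose cotransporter SGLT1, which brings glucose and galactose into the cell. It was at 1119, 1116 and 1485 in the core libraries, in replicate order. It was at 1098, 1492, 1688, 1684 and 1474 in the Roseburia libraries. The lowest value of all 8 libraries was in Roseburia replicate 1, so the groups overlapped. The means were 1240.2 ± 212 (SD, n = 3) and 1487 ± 240.3 (SD, n = 5), with a log2 difference of 0.26 (SE 0.17, 95% interval −0.12 to 0.63, limma adjusted p = 0.610).

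The summed level of 11 pan-epithelial markers was 113737 to 129323 in core and 112100.5 to 147540 in Roseburia libraries. Of the 11, 9 had log2 differences above 0, against 49.6% of all genes. When each library was rescaled to the same mean log2 level of those markers, the median of all genes tested moved to −0.28, Mgam to −0.06 and Slc5a1 to −0.02. This rescaling moves all genes by nearly the same amount. Relative to that median the log2 differences, 0.22 for Mgam and 0.26 for Slc5a1, therefore repeat the main fit and check nothing. Markers of connective tissue, muscle and fat mostly had lower means in the Roseburia group, and 0 of them passed the adjusted threshold by limma. At an unadjusted p below 0.05 were 4 of 8 fibroblast, 3 of 8 smooth muscle and 3 of 5 adipocyte markers. The share over all genes was 8.13% in either direction, with 480 of 13020 genes having the lower mean. The summed level of 8 fibroblast markers was 8137.5 to 9334.8 in core and 4819.6 to 7221.6 in Roseburia libraries. Of the 8, 0 had a log2 difference above 0, against 49.6% of all genes. Taken singly, 4 of the 8 had groups that did not overlap, against 5.84% of all genes. The sum of 8 smooth muscle markers was 128696.5 to 176957 in core and 85786 to 151481 in Roseburia libraries, which overlapped. Adipocyte markers had the lowest median log2 difference of these lists, −1.73, against −0.62 for fibroblast and −0.36 for smooth muscle markers. Their sum was 1224.2 to 2966.6 in core and 380.9 to 1736.3 in Roseburia libraries. The part of the tissue's make-up in the members' differences was not tested. In whole tissue, fewer cells of a type and less RNA per cell cannot be told apart.

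Sis was the member that varied most between libraries. It encodes sucrase-isomaltase, which splits sucrose and the branch points of starch. Its normalized values were 22.2, 11.7 and 580.4 in the core libraries. They were 11.4, 945, 429, 1370.1 and 28.1 in the Roseburia libraries. In each group some libraries were near 10 to 30 and others above 400, with nothing between. The groups overlapped, and 2 of the 5 Roseburia libraries were above every core library. The highest value was 120.7 times the lowest over all libraries, 49.6 times within core and 120.7 times within Roseburia. The lowest values stood for only 11 to 22 estimated reads per library and the 4 highest for 505 to 1160, so the gap was well above counting error. The log2 difference between the groups was 1.71 (SE 1.69, 95% interval −2.02 to 5.45, limma adjusted p = 0.697). Without core replicate 3 it was 3.41, and without core replicate 2 it was 0.65, so single libraries moved this value by more than any other member's.

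**Figure D1:**
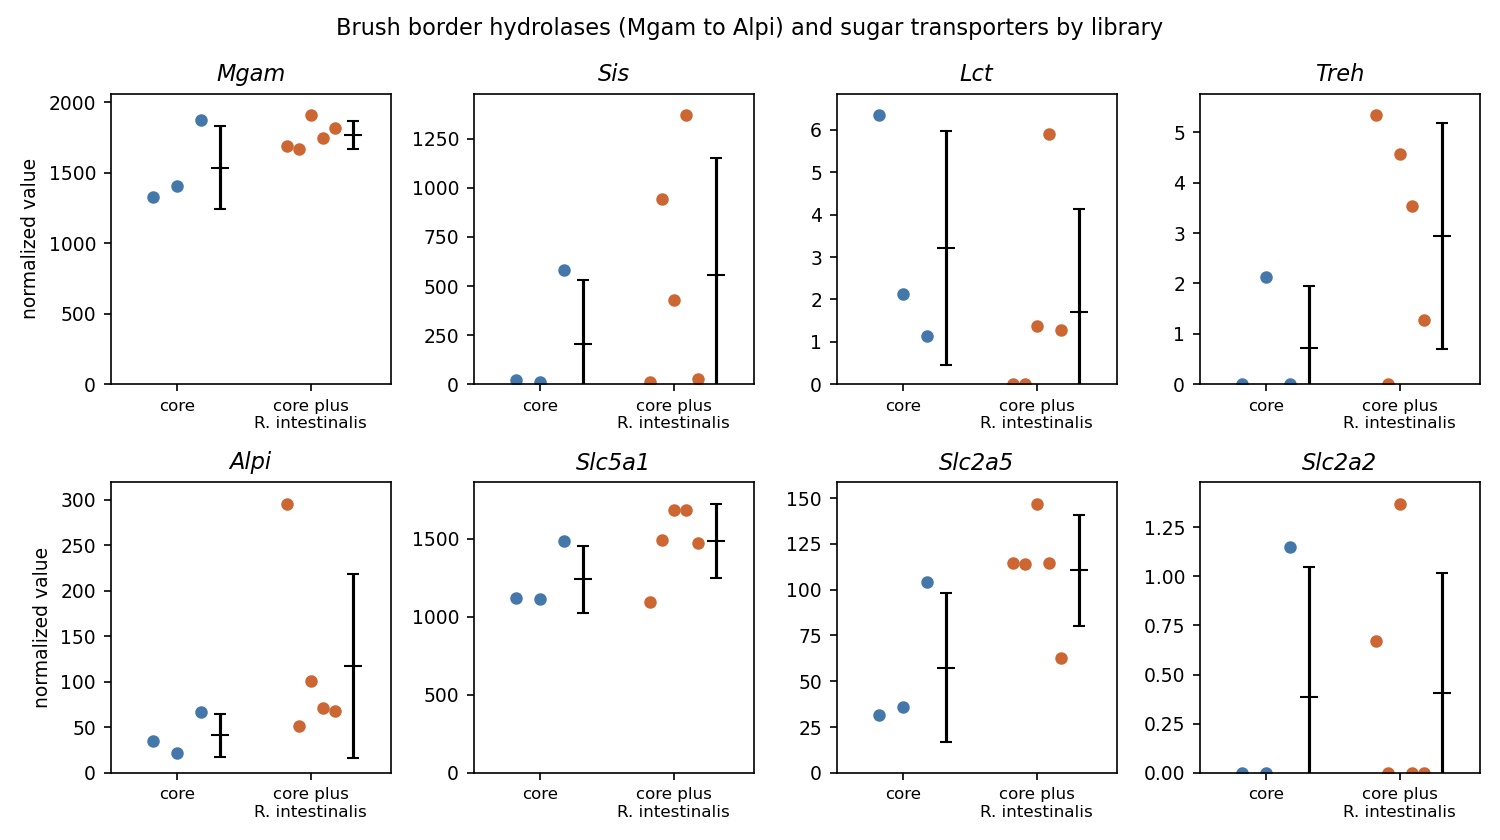
Normalized value (vertical axis, linear from 0) of each of the 8 genes by library (points), the black bars giving means and SDs (cut off at 0), for core (blue, n = 3) and Roseburia (orange, n = 5). Mgam and Slc5a1 are at 1098 or more in all 8 libraries, Sis splits into libraries under 30 and above 400 in both groups, and Lct, Treh and Slc2a2 stay under 10.

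The spread between libraries of a group set Sis apart from Mgam, the member closest to it in protein family. The SD of log2(value + 1) within groups was 3.04 for Sis, the 9th largest of 13020 genes tested. It was 0.17 for Mgam, smaller than for most genes (the median over all genes tested was 0.30). For Slc5a1 it was 0.25, for Slc2a5 0.65 and for Alpi 0.92. As a share of the summed values of Sis and Mgam within a library, Sis made up from 0.668% (Roseburia replicate 1) to 43.9% (replicate 4 of that group). The transcripts of the 2 genes shared 0 of 5904 windows of 50 bases, so reads of that length would not pass from one to the other.

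**Figure D2:**
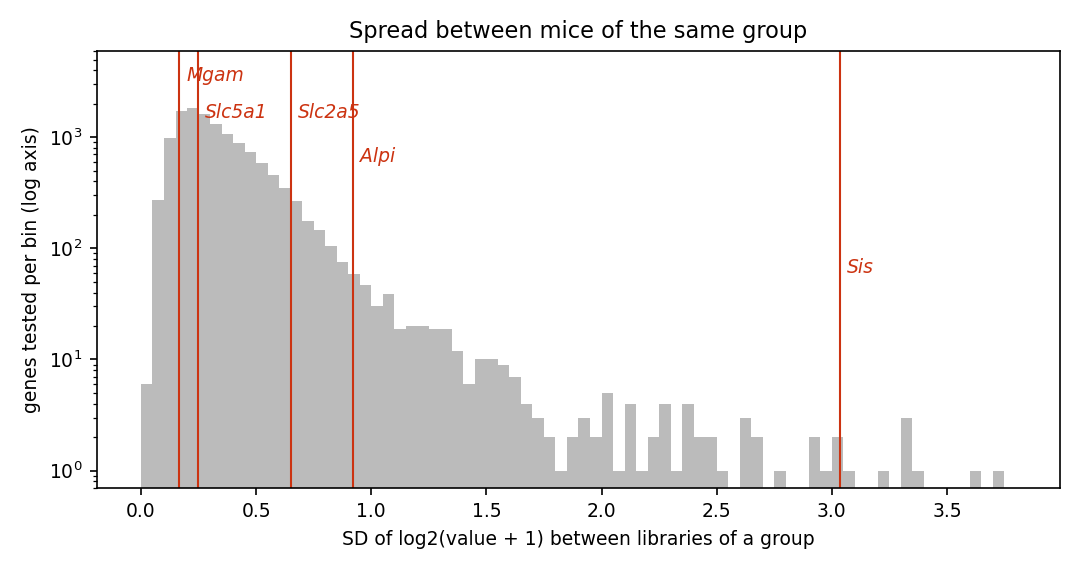
Number of genes tested (vertical axis, log) by the SD of log2(value + 1) between libraries of the same group (horizontal axis), with the 5 tested members marked by red lines. Mgam (0.17) and Slc5a1 (0.25) lie left of the overall median of 0.30, Slc2a5 (0.65) and Alpi (0.92) in the right tail and Sis (3.04) near its end.

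Some genes of position along the gut were high or low in the same libraries as Sis. Slc10a2, the ileal bile acid transporter, was at 49.0, 13.9 and 509.7 in core and at 59.7, 818, 414, 949 and 80.5 in Roseburia libraries. Hoxb13, a homeobox gene of the hindmost body axis, was at 141, 439 and 25.3 in core and at 247, 2.16, 394, 8.26 and 663 in Roseburia libraries. Sis and Slc10a2 were both high in core replicate 3 and in Roseburia replicates 2, 3 and 4. Hoxb13 had its 3 lowest values in 3 of those 4 libraries, while Roseburia replicate 3 had high values of Sis and of Hoxb13. With the log2 value of Hoxb13 as a covariate the log2 difference of Sis was 1.17 (SE 1.06, limma unadjusted p = 0.296). The 7 markers of the distal colon did not follow 1 pattern. Hoxa13, like Hoxb13, had its 3 lowest values in core replicate 3 (28.7) and Roseburia replicates 2 (6.47) and 4 (24.8), against 44.4 to 174 elsewhere. B4galnt2, a glycosyltransferase gene that makes up nearly all of the list's summed level, had its 4 highest values in the libraries with high Sis, at 10571 to 15476 against 4380 to 7185 in the others. That of 19 small intestinal markers overlapped between libraries with high and low Sis, at 19675 to 23946 and 13522 to 23683. The part of position along the gut in the Sis values was not tested.

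Among 12311 other named genes tested, the 3 whose pattern was most like that of Sis over the 8 libraries were Osr2, S100g and Nts. Likeness was the mean absolute difference between centred log2(value + 1) values, with 0 for the same pattern. It was 0.36 for Osr2, a zinc finger transcription factor, 0.58 for S100g, the vitamin D-dependent calcium binding protein calbindin-D9k, and 0.79 for Nts, the gut hormone neurotensin. Osr2 was at 6.35, 2.13 and 189 in core and at 5.34, 398, 247, 504 and 15.3 in Roseburia libraries. S100g was listed at 0 in 3 of the 4 libraries with low Sis and reached 44.2 in Roseburia replicate 2. Against this, Mgam stood 2.59 from Sis and Slc10a2 0.83.

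**Figure D3:**
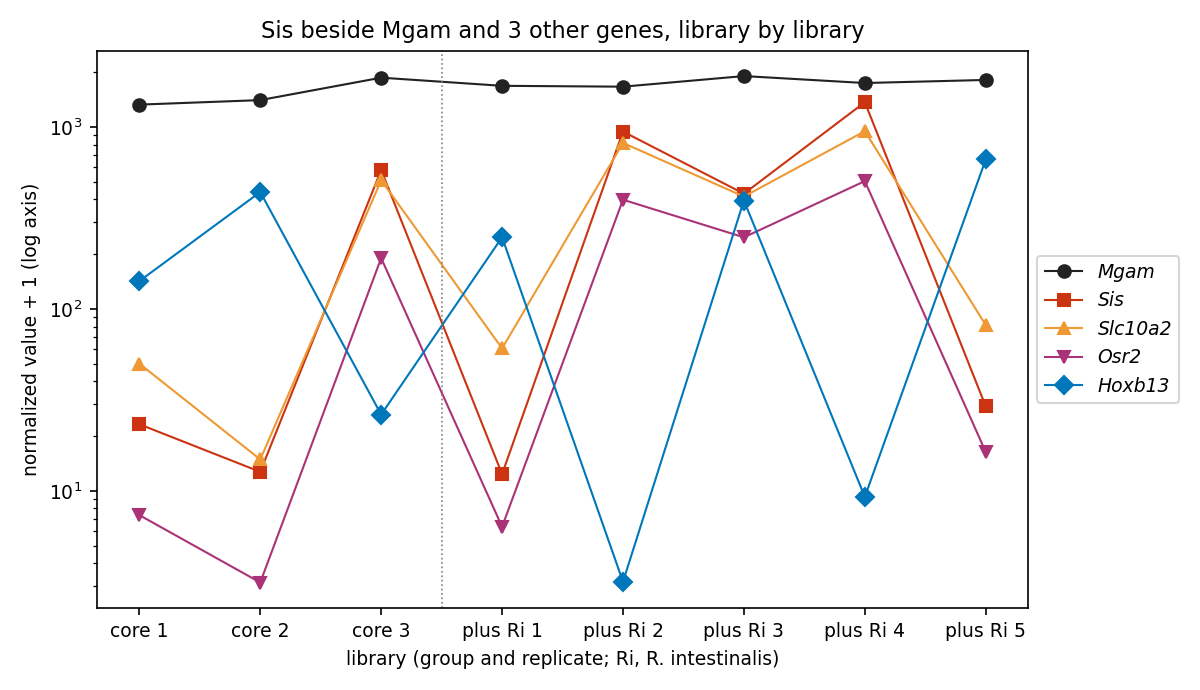
Normalized value plus 1 (vertical log axis) of Sis, Mgam, Slc10a2, Osr2 and Hoxb13 in each library (horizontal axis, core left and Roseburia right of the dotted line). Sis, Slc10a2 and Osr2 are high in core 3 and in libraries 2, 3 and 4 with R. intestinalis, Hoxb13 is lowest in 3 of these, and Mgam stays between 1329 and 1908.

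The upstream sequences of Sis and Mgam are shown because the 2 related hydrolases were so unlike in spread. Each is the 250 bases before the RefSeq start of the gene, written 5′ to 3′ in the direction of the gene, from the build GRCm38.p6. Capitals mark matches on either strand to 3 short motifs, and neighbouring or overlapping matches run together. TTTAT is the core bound by the Cdx factors of intestinal identity. AGATAA is a site of the Gata factors. CAAAGTCCA is a site of Hnf4.
Sis (chr3:72967864-72968113, minus strand): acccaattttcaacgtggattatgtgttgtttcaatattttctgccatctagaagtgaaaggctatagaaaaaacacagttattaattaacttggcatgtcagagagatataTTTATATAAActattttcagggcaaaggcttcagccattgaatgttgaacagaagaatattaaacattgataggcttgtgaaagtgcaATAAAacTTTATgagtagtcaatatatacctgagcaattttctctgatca
Mgam (chr6:40628581-40628830, plus strand): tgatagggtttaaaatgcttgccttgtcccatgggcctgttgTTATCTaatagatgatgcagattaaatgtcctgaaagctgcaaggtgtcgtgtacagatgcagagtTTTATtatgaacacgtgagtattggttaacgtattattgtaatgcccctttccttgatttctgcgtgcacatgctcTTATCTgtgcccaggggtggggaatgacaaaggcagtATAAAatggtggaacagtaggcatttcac
In the Sis window 4 matches to the Cdx core were found, 2 of them side by side, at bases −138 to −129 from the start. The others lay on opposite strands at −50 to −46 and −43 to −39. The Mgam window held 2 matches to the Cdx core and 2 to the Gata site. Of 32841 mouse windows of the same length, 37.3% held the Cdx core, 9.99% the Gata site and 0.384% the Hnf4 site. A match describes these letters and shows no binding.

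Lct and Treh, the remaining disaccharidase genes, were close to the limit of detection. Lct, lactase, was at 6.35, 2.13 and 1.15 in core and at 0, 0, 1.37, 5.90 and 1.28 in Roseburia libraries, 16 estimated reads in all. Treh, trehalase, was at 0, 2.13 and 0 in core and at 5.34, 0, 4.57, 3.54 and 1.28 in Roseburia libraries, 24 estimated reads in all. For either gene both groups held values at or near 0. A library listed at 0 could still have an expected count of up to 3 reads, a normalized value of 1.37 to 4.77 depending on the library. No fold is given for them, and a difference between the groups was not detectable at this depth.

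Alpi encodes intestinal alkaline phosphatase, a brush border enzyme that also removes phosphate from bacterial lipopolysaccharide. It was at 34.9, 21.3 and 66.6 in core and at 295.6, 51.8, 101, 70.8 and 67.8 in Roseburia libraries. All libraries with R. intestinalis but replicate 2 were above the highest core library, and replicate 1 was far above the other 4. Replicates 4 and 5 exceeded that core library only narrowly, at 60 and 53 estimated reads against 58. The log2 difference was 1.33 (SE 0.54, 95% interval 0.15 to 2.52, limma unadjusted p = 0.0310, adjusted p = 0.588). Without Roseburia replicate 1, which also had the highest level of 6 of the 11 pan-epithelial markers, it was 0.92 (limma unadjusted p = 0.0316). Without core replicate 2 it was 0.95 and without core replicate 1 it was 1.30, with unadjusted p-values of 0.143 and 0.0781. After pan-epithelial rescaling it was 1.06, with the median of all genes at −0.28. Relative to that median, the difference of Alpi repeats the main fit by construction.

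The other alkaline phosphatases were scarce. Akp3, a close relative of Alpi in the gut, was listed at 0 in 7 libraries and at 1.40 in Roseburia replicate 1. Alppl2 was at most 4.72. Alpl, the tissue-nonspecific form, was between 5.39 and 24.8, with a log2 difference of −0.23 (limma adjusted p = 0.865) that turned to 0.07 without core replicate 3. Alpi shared 1.53% of 2288 windows of 50 bases with Akp3 and 0.04% with Alppl2, so few reads could fall to either by likeness.

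The gene whose pattern was nearest to that of Alpi was Creb3l3, a transcription factor of liver and gut lipid metabolism (likeness 0.28, 11.1 to 28.7 in core and 19.4 to 74.8 in Roseburia libraries). Prpsap1 and Mpst followed at 0.34 each. The highest value of all 3 was in Roseburia replicate 1, as for Alpi. Its upstream window is shown because it held the Hnf4 site, found in only 0.384% of windows.
Alpi (chr1:87101607-87101856, minus strand): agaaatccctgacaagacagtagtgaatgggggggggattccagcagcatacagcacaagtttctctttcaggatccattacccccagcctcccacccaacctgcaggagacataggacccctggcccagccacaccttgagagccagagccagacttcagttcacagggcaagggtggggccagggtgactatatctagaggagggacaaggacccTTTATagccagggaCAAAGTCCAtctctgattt
The Hnf4 letters lay at bases −19 to −11 and the Cdx core at −33 to −29 from the RefSeq start. Over the 8 members, the Cdx core was found in 4, the Gata site in 2 and the Hnf4 site in 2. The windows of Slc5a1, Slc2a5 and Slc2a2 held none of the 3.

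Slc2a5 encodes the fructose transporter GLUT5, which takes fructose from the lumen. It was at 31.8, 36.2 and 104 in core and at 114.8, 114.3, 147, 114.5 and 62.6 in Roseburia libraries. Of the 5 libraries with R. intestinalis, 4 were above every core library, and replicate 5 was below core replicate 3, so the groups overlapped by those 2 libraries. The means were 57.5 ± 40.8 (SD, n = 3) and 110.7 ± 30.3 (SD, n = 5). The log2 difference was 1.09 (SE 0.39, 95% interval 0.23 to 1.96, limma unadjusted p = 0.0182, adjusted p = 0.588), with the smallest unadjusted p of the 5 members tested. It was 1.63 without core replicate 3 (unadjusted p = 0.000524), 0.78 without core replicate 1 (unadjusted p = 0.0999) and 0.87 without core replicate 2 (unadjusted p = 0.0827). After pan-epithelial rescaling it was 0.82, with the median of all genes at −0.28. Relative to that median, the difference of Slc2a5 again repeats the main fit by construction.

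The genes nearest in pattern to Slc2a5 were Edn2, endothelin-2 (likeness 0.18), Tsku, a secreted proteoglycan (0.21), and Naaladl1, a peptidase of the ileal brush border (0.23). Naaladl1 was at 154 to 491 in core and at 339 to 1087 in Roseburia libraries. The genes nearest to Mgam were Nsdhl, Cryl1 and Gstt3 (0.05 to 0.06), and those nearest to Slc5a1 were Tmem42, Slc44a4 and Fech (0.08 each). Mgam and Slc5a1 themselves stood 0.12 apart, the closest pair among the 5 members.

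Slc2a2, the facilitative transporter GLUT2 through which glucose leaves small intestinal enterocytes, was barely read. It was at 0, 0 and 1.15 in core and at 0.67, 0, 1.37, 0 and 0 in Roseburia libraries, 5 estimated reads in all.

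Per length, Slc5a1 was above Mgam in 8 of 8 libraries, while by value not corrected for length Mgam was the higher. Divided by the longest coding transcript of each gene (GENCODE M21), the mean level per kilobase was 302 in core and 362 in Roseburia libraries for Slc5a1, and 237 and 272 for Mgam. Over all libraries Slc5a1 ran from 267 to 411 and Mgam from 205 to 294, ranges that overlap although the order held within each library. Sis averaged 34.4 and 93.5 per kilobase, but its libraries ran from 1.91 to 230.2. Slc2a5 (18.2 and 35.0) and Alpi (17.5 and 50.2) overlapped each other and Sis. Treh, Lct and Slc2a2 were at most 2.61, 1.03 and 0.25 in any library. Transcripts used in this tissue may be shorter than the longest one, which would raise these levels.

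Set against all genes, 0 of the 5 tested members passed an adjusted p of 0.05 by limma, as did 0 of 13020 genes (0%). At an unadjusted p below 0.05 there were 2 of 5 members, both with the higher mean in the libraries with R. intestinalis, against 8.13% of all genes in either direction and 4.44% in that direction. These were 578 genes with the higher and 480 with the lower mean with R. intestinalis, a split that became 116 and 1033 after pan-epithelial rescaling. All 5 had a log2 difference above 0, against 49.6% of all genes, with a median of 1.09 against −0.003, and 3 of the 5 had one of at least 1, against 1.01%. The ranges of the groups were apart for 0 of the 5, against 5.84% of all genes in either direction and 2.53% with the Roseburia libraries higher. Weighting the libraries by limma gave 1 member past the threshold, Slc2a5 (log2 difference 1.51, adjusted p = 0.0455), in a fit that called 455 genes and gave Roseburia replicate 3 a weight of 7.98. Without that library the weighted fit called 0 members and 0 genes. In the authors' deposited table the posterior probability of differential expression was at most 0.14 (Slc2a5) for the 8 members, so 0 of 8 reached 0.95, against 0.481% of the table.

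**Figure D4:**
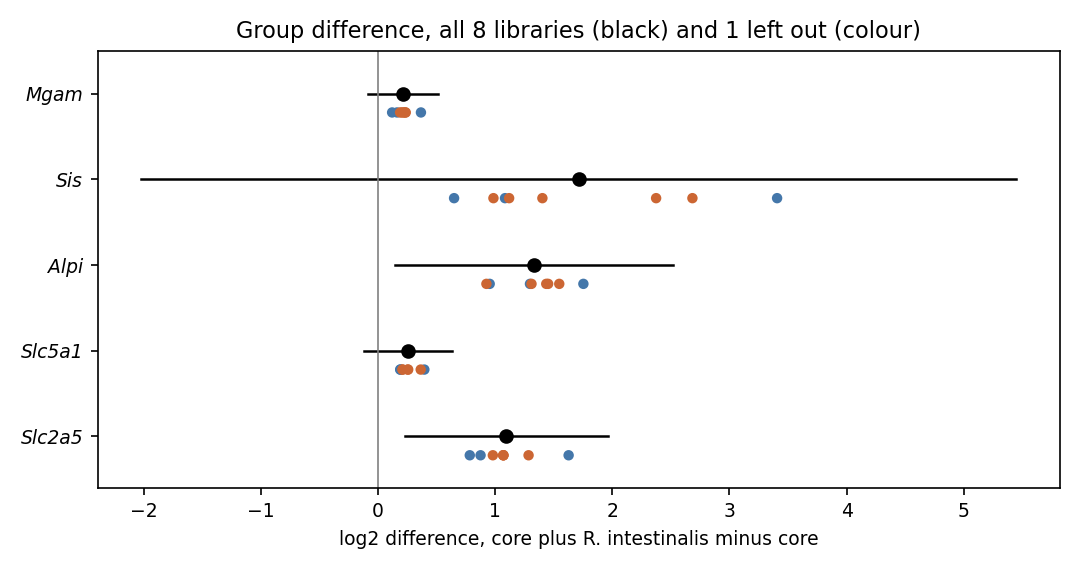
Log2 difference, Roseburia minus core (horizontal axis), of the 5 tested members from all 8 libraries (black points, with 95% intervals), and with 1 core library (blue) or 1 Roseburia library (orange) left out. The intervals of Slc2a5 (0.23 to 1.96) and Alpi (0.15 to 2.52) lie above 0 before adjustment, and that of Sis spans −2.02 to 5.45.

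Other genes of carbohydrate digestion, sugar transport and sugar use were examined as a list. Of 46 listed, 40 were in the table and 27 were tested. None of the 27 passed the adjusted threshold by limma, and 3 had a higher and 1 a lower mean with R. intestinalis at an unadjusted p below 0.05, against 8.13% of all genes in either direction. Of the 27, 19 had a log2 difference above 0 and 8 below, against 49.6% of all genes above 0, with a median of 0.19. Dak, the kinase that phosphorylates dihydroxyacetone and the glyceraldehyde released from fructose, averaged 29.8 ± 3.87 (SD, n = 3) and 55.5 ± 17.8 (SD, n = 5), a log2 difference of 0.82. Its groups overlapped only through Roseburia replicate 5, at 30.8.

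Pck1, the cytosolic enzyme that commits oxaloacetate to glucose synthesis, was the 1 gene of the 27 whose groups did not overlap, against 5.84% of all genes, at 874 to 967 in core and 1001 to 1500 in Roseburia libraries (log2 difference 0.42, limma adjusted p = 0.588). Gaa, the lysosomal acid glucosidase, averaged 63.0 ± 30.1 (SD, n = 3) and 136 ± 86.4 (SD, n = 5), with 289 in Roseburia replicate 1. Slc2a12, the glucose transporter GLUT12, had the opposite sign, with means of 26.4 and 15.0 and a log2 difference of −0.81 (limma adjusted p = 0.588). Khk, ketohexokinase, which starts fructose breakdown, had a log2 difference of 0.23 (limma adjusted p = 0.610).

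Of 16 transcription factors known to act on enterocyte brush border genes, 13 were tested, and 0 passed the adjusted threshold by limma. At an unadjusted p below 0.05 there was 1, against 8.13% of all genes in either direction. Of the 13, 12 had a log2 difference above 0, against 49.6% of all genes, with a median of 0.32 against −0.003. Klf5 averaged 582 in core and 738 in Roseburia libraries and Elf3 1046 and 1639, with log2 differences of 0.33 and 0.57 (limma adjusted p = 0.588 for each). Both are transcription factors of the gut epithelium. After pan-epithelial rescaling, which moved the median of all genes to −0.28, their log2 differences were 0.05 and 0.295. Roseburia replicate 1 held the highest value of 9 of the 13 factors, against 28.1% of all genes, and of Alpi.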

How the data were processed

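The data are 1 deposited table of gene values for 8 libraries. The submitters' processing notes name RSEM 1.2.23, Bowtie2 and mm9, a mouse build, and the annotation is not given in the sources used here. Per the file headers and the values, each is a normalized expression signal that the authors scaled by 1 factor per library. The authors' posterior probability is a score, and the deposited fold change is a linear ratio, Roseburia over core. The most frequent low step per library was taken as 1 read to estimate depth. Values below 30 fell on such steps (tolerance 0.05) in 79.9% to 84.5% of cases, so counts were not recovered.

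Values were analysed as log2(value + 1), a scale that shrinks the changes of low genes, with limma 3.58.1 in R 4.3.3 (mean-variance trend, no block). Genes with a mean of at least 10 were tested and p-values adjusted by Benjamini-Hochberg over all 13020, with a threshold of 0.05. The fit was tested on simulated data. The members and lists were chosen with earlier results of these data known. Named genes were all members, the 3 nearest in pattern to each, up to 4 of each pathway list by smallest p, and Slc10a2, Hoxb13, Epcam and Vil1 as markers. Other genes given by name were chosen after their values were seen, and some listed genes are not reported here by name. Upstream sequences are from RefSeq tables (GRCm38.p6; 8 of 8 members matched) and transcript lengths from GENCODE M21, neither the submitters' build.

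Alternatives were pseudocounts of 0.5 and 5, no filter, a filter at a mean of 50, rescaling to pan-epithelial markers or with trimmed M values (30% and 5% trimmed), quantile normalization, leaving out each library, a block for the replicate number, Hoxb13 as a covariate, no trend and library weights. Weights without Roseburia replicate 3 were added after seeing the data. The number in the sample names of the core libraries starts at 3, and earlier numbers were not analysed here.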

Additional observations from a re-analysis of the deposited data

Results flagged for a closer look

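In the Roseburia group, 3 of 21 genes checked had 1 library far from the other 4. Chance flags about 1 in 20 groups of independent, normally distributed values. These linear values need not be so, and no excess over chance can be read from the 3. Alpi and Gaa were flagged in replicate 1, which held the highest value of 28.1% of all genes tested. Alpi was at 295.6 in replicate 1 and between 51.8 and 101 in the others. Gaa was at 289 in the same library and between 86.7 and 111.5 in the others. Lct was at 5.90 in replicate 4, which stands for 5 estimated reads, and between 0 and 1.37 in the others.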

How the results depend on the processing

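The log2 differences of Alpi, Sis and Slc2a5 stayed above 0 under all 21 alternatives, ranging from 0.92 to 1.75, from 0.65 to 3.41 and from 0.78 to 1.63. Those of Mgam and Slc5a1 turned only with pan-epithelial rescaling, to −0.062 and −0.019, as did that of the marker Epcam, to −0.081, which left 3 of 5 members above 0. Genes past the adjusted threshold numbered 455 with library weights, of which 1 was a member, and 0 to 1 with 1 library left out, of which 0 were members. Members at an unadjusted p below 0.05 numbered 5 with library weights, 1 with pan-epithelial rescaling, 1 with a replicate block by the number in the sample name, and 0 to 3 with 1 library left out. Members whose groups did not overlap numbered 0 to 3 with 1 library left out. Alpl ranged from −0.676 to 0.065 with 1 library left out (above 0 without core replicate 3) and turned to 0.319 with library weights without Roseburia replicate 3. Hoxb13 turned to 0.19 with a replicate block by the number in the sample name, to 1.13 with library weights, and ranged from −1.801 to 0.409 with 1 library left out (above 0 without core replicate 2 or Roseburia replicates 2 or 4). The cause was not tested.

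A replicate block by the number in the title called 0 genes and 0 members. Deviations of libraries with the same number in the title correlated at −0.115, −0.53 and −0.07. Those with the same number in the sample name correlated at −0.011, −0.407 and −0.494. With so few pairs, and deviations centred within small groups, these correlations cannot settle whether the numbers pair the libraries. Without Roseburia replicate 1 the log2 difference was 0.92 for Alpi, 1.07 for Slc2a5 and 2.68 for Sis. Over all genes, those at an unadjusted p below 0.05 numbered 1058, 395 with that block, 2400 with the Hoxb13 covariate, 3829 with library weights, 269 without core replicate 1, 694 without Roseburia replicate 3 and 1902 without Roseburia replicate 2. Depth limits Lct, Treh and Slc2a2, with 16, 24 and 5 estimated reads in all.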

Other observations

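The libraries in which Sis was high recurred in other genes. Core replicate 3 and Roseburia replicates 2, 3 and 4 held the 4 highest values of 434 of 13020 genes tested (3.33%), Sis among them, and the 4 lowest of 326. Slc5a1 was another of the 434, although its next library was at 1474 against 1485 for the lowest of the 4. In the list of other carbohydrate genes they were Slc5a9, a sodium-coupled sugar transporter, and Slc2a9, a urate transporter of the glucose transporter family. Slc5a9 was at 81.0, 90.5 and 184 in core and at 97.5, 198, 159, 124 and 107 in Roseburia libraries. Slc2a9 was at 50.8, 62.8 and 141 in core and at 89.5, 159, 117, 122 and 99.7. Among the transcription factors it was Isx, which represses intestinal vitamin A uptake (1160, 582 and 2408 in core, and 1259, 2720.5, 1744, 2601 and 870.5 in Roseburia libraries), while Klf4 had its 4 lowest values there.

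Of the 17 small intestinal markers tested, 6 had these 4 libraries highest (among them Fabp1, Fabp6, Apob, Enpep and Slc10a2). So did 2 of 5 genes listed as distal colon markers (Hoxd10 and B4galnt2) and 2 of 5 Paneth cell markers (Itln1 and Mmp7). Of 14 colonocyte markers 1 did (Car1). Hoxb13 and Hoxa13, of that distal colon list, had their 3 lowest values in core replicate 3 and Roseburia replicates 2 and 4. The colonocyte markers Aqp8, Aqp4, Ggh and Slc26a3 also had their 3 lowest there, Aqp8 at 47.4 to 344 against 1255 to 2866 elsewhere. B3galt5, also a colonocyte marker, had its 4 lowest values in the 4 libraries with high Sis. Enpep, the brush border aminopeptidase A, was at 295, 244 and 606 in core and at 196, 745, 608, 1014 and 183 in Roseburia libraries. Slc15a1, also on the small intestinal list, was lowest in core replicate 3 (209) and Roseburia replicates 2 (137) and 4 (216), against 821 to 1788 elsewhere. Paneth cell defensins were nearly absent, with Defa24 listed at 0 in 7 libraries and at 6.36 in Roseburia replicate 3. All of these genes were picked out after their values were seen.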
